A study of Mus musculus with 19 samples.

Results

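The genes described here are 9 enzymes of glycolysis (Hk1, Hk2, Pfkl, Aldoa, Tpi1, Pgk1, Pgam1, Pkm and Ldha) and Txnip, a protein that limits glucose uptake. They were chosen by name, and every probe set that the annotation pairs with 1 of these 10 symbols alone was taken. That gave 14 of the 10833 probe sets with a single symbol, for 10 of 8251 genes. Of the 14, 13 were bright enough to be tested, and the other, the dimmer of the Hk2 probe sets, is given by its values alone. The mRNA levels come from 19 oligonucleotide arrays of mouse OT-I CD8+ T cells, which carry a transgenic receptor for a peptide of ovalbumin, taken from lymph node and spleen after transfer into b6 hosts. In the unirradiated group (4 arrays, titled nrd) the host was not irradiated and the cells were sorted at day 6. The other 3 groups came from irradiated hosts, where lack of other T cells lets transferred cells divide without their antigen, a state called homeostatic proliferation. The day 5 group (8 arrays) is titled day 5 but described as sorted at day 6, the day 40 group has 4 arrays and the day 115 group has 3. For day 5 arrays 1 and 2 the description leaves the cell type unstated. The labels give no unirradiated host at day 40 or day 115, so time since transfer and irradiation of the host cannot be told apart there. They also give no age, genotype of the transferred cells beyond OT-I, dose of radiation or statement that arrays came from separate animals, so the p-values measure only the spread between these arrays, which may be technical.

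Glycolysis splits glucose into pyruvate and yields ATP without oxygen. Hexokinases trap glucose in the cell, phosphofructokinase commits it to the pathway, aldolase and triosephosphate isomerase split and balance the 3-carbon sugars, phosphoglycerate kinase and pyruvate kinase make ATP, and lactate dehydrogenase turns pyruvate into lactate and restores NAD+. T cells that leave rest and divide are known to raise this pathway. Txnip belongs to the alpha-arrestins, binds thioredoxin and removes glucose transporters from the cell surface, and its transcription is known to respond to glucose.

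The regulatory sequence is shown for Ldha and Txnip because these were the genes of the set that changed in opposite directions between day 5 and day 40. Each line gives the 250 bases before a transcript start in RefSeq (GRCm38.p6), on the plus strand, at chr7:46845554-46845803 for the first of the Ldha starts and chr3:96557707-96557956 for Txnip. Capitals mark ACGTG, the core bound by hypoxia-inducible factors and part of the E box CACGTG, and CACGAG, the repeated unit of the carbohydrate response element of Txnip, on either strand.
Ldha: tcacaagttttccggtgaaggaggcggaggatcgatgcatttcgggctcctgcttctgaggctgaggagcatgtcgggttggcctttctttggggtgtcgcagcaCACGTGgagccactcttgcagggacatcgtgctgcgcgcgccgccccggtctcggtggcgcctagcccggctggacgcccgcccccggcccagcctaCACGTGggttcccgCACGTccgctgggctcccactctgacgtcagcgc
Txnip: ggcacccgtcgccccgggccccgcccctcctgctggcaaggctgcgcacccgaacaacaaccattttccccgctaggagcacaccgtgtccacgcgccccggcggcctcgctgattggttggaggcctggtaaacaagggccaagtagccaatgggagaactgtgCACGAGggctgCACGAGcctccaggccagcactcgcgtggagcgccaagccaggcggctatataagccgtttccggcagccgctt

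The Ldha stretch holds CACGTG at 2 places, starting at -145 and -48 from the transcript start, and a further ACGTG on the other strand at -34. CACGTG contains ACGTG on both strands, so each E box also counts as ACGTG. Among the 10 genes, Ldha was the only one with CACGTG in any promoter window, while 7.15% of 32851 mouse promoter windows of 300 bases (250 before to 50 after a start) hold it. ACGTG lay in 8 of the 14 windows of the enzymes and not in the 1 window of Txnip, and 19.6% of all windows hold it. A gene can have several windows, and 2 of the Aldoa windows overlap and share 1 match. GCGTG was not counted in any window, and the Txnip stretch holds it, unmarked. The Txnip stretch holds CACGAG at -85 and -74, a pair with 5 bases between them. CACGAG is in 6.47% of all windows and in 3 of the 15 windows of the 10 genes, and a pair so spaced was in 1 of the 32851, the Txnip window itself. The spacing was searched because this element was known, so its rarity is a description of the letters. These are matches of letters only, and nothing in the array data measures binding there.

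The 19 arrays fell into 2 clusters by their overall correlation that did not follow the groups. Cluster 1 holds day 5 arrays 1 to 3, day 40 arrays 1 and 2 and all 3 day 115 arrays, and cluster 2 holds day 5 arrays 4 to 8, day 40 arrays 3 and 4 and all 4 unirradiated arrays. Arrays of 1 group in the same cluster had a median correlation of 0.974, and arrays of 1 group in different clusters 0.884. The labels name no scan date or other batch that the clusters could be matched with. Each comparison is therefore given from a fit on the groups alone and, where it matters, with the cluster as a term. The clusters were drawn from the same signals that are tested, so p-values with the term or within a cluster may be too low. Day 115 and unirradiated arrays share no cluster, so that comparison has no value within a cluster. With the term it takes the cluster difference from the day 5 and day 40 arrays and assumes it equal in every group. CD8 T-cell markers were high on every array (summed signal of 7 genes 8404 to 14457). This sum was 8404 to 10168 in unirradiated and 9164 to 14457 at day 5. It was 8771 to 14077 at day 40 and 10303 to 12565 at day 115. Among these genes, the mean of Cd8a went from 2533 in unirradiated to 2079 at day 115. The summed signal of 8 stroma and liver genes reached at most 699 in unirradiated, 723 at day 5 and 704 at day 40. At day 115 it was 726 to 1343. Of these genes, Alb had means of 26.0 ± 1.52 in unirradiated and 342 ± 285 at day 115, and Col1a1 172 and 121. The summed signal of 7 B-cell and plasma-cell genes was 887 to 995 in unirradiated, 1097 to 2220 at day 5, 1296 to 2515 at day 40 and 2161 to 2772 at day 115. Ighm was the brightest of the 7, with means of 500, 978, 1161 and 1944 in the same order. Not all 7 rose, as Xbp1 went from a mean of 47.0 in unirradiated to 34.8 at day 115. The summed signal of 6 erythroid genes was 299 to 473, 327 to 2626, 465.9 to 1125 and 577 to 1342 in that order. Hba-a1 was the brightest of these, with means of 137, 654, 580 and 745. The mean of Car2 went from 63.0 in unirradiated to 47.9 at day 115. In day 115 against unirradiated arrays, 2 of 7 CD8 T-cell, 2 of 7 B-cell and plasma-cell and 1 of 6 erythroid genes were called higher. Of the dendritic genes 1 of 3 was called higher, and of the myeloid and neutrophil genes 0 of 6. Of the stroma and liver genes 2 of 6 were called higher and 1 lower. Over all genes 15.9% were called higher and 12.7% lower. The part of cells other than CD8 T cells in the results below was not tested. In bulk RNA a change in the mix of cells cannot be told apart from a change per cell.

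Levels below are linear signals, and differences are on the scale of log2(signal + 16), tested by limma with Benjamini-Hochberg adjustment over all 8695 probe sets tested and called at an adjusted p under 0.05. At day 5 against unirradiated hosts only Ldha was called among the 13 probe sets, higher, with 0.794% of all tested probe sets called (1.61% with the cluster term, where again only Ldha was). At day 40 against unirradiated hosts limma called 0 of the 13, with 1.5% of all called; 3 had an unadjusted p under 0.05. With the cluster term Txnip was called higher at day 40, and 2.23% of all were called. At day 115 against unirradiated hosts 4 were called higher (Pfkl, Tpi1 and both Pkm probe sets) and 0 lower, and 5 had an unadjusted p under 0.05. Over all probe sets 27.9% were called in that comparison and 15.1% called higher, so a large share of the array differed. With the cluster term 1 of the 13, a Pkm probe set, and 4.42% of all were called at day 115.

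Among the irradiated groups, Txnip was called higher and Ldha lower at day 40 than at day 5, with 1.25% of all called, and both again with the cluster term, with 7.48% called. At day 115 against day 5 Pkm and Txnip were called higher, with 13.9% of all called. With the cluster term the bright Txnip probe set was called higher and the dim one lower there, with 14.3% called. Between day 40 and day 115 limma called 0 of the 13, with 0.092% called (0.196% with the cluster term); 2 had an unadjusted p under 0.05. The median log2 difference of the 13 was 0.12 at day 5, 0.13 at day 40 and 0.30 at day 115 against unirradiated, beside 0.03, 0.03 and 0.01 over all tested probe sets. With the cluster term it was 0.18, 0.02 and 0.19, beside -0.00, -0.02 and -0.05. These 3 comparisons share the same 4 unirradiated arrays.

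**Figure D1:**
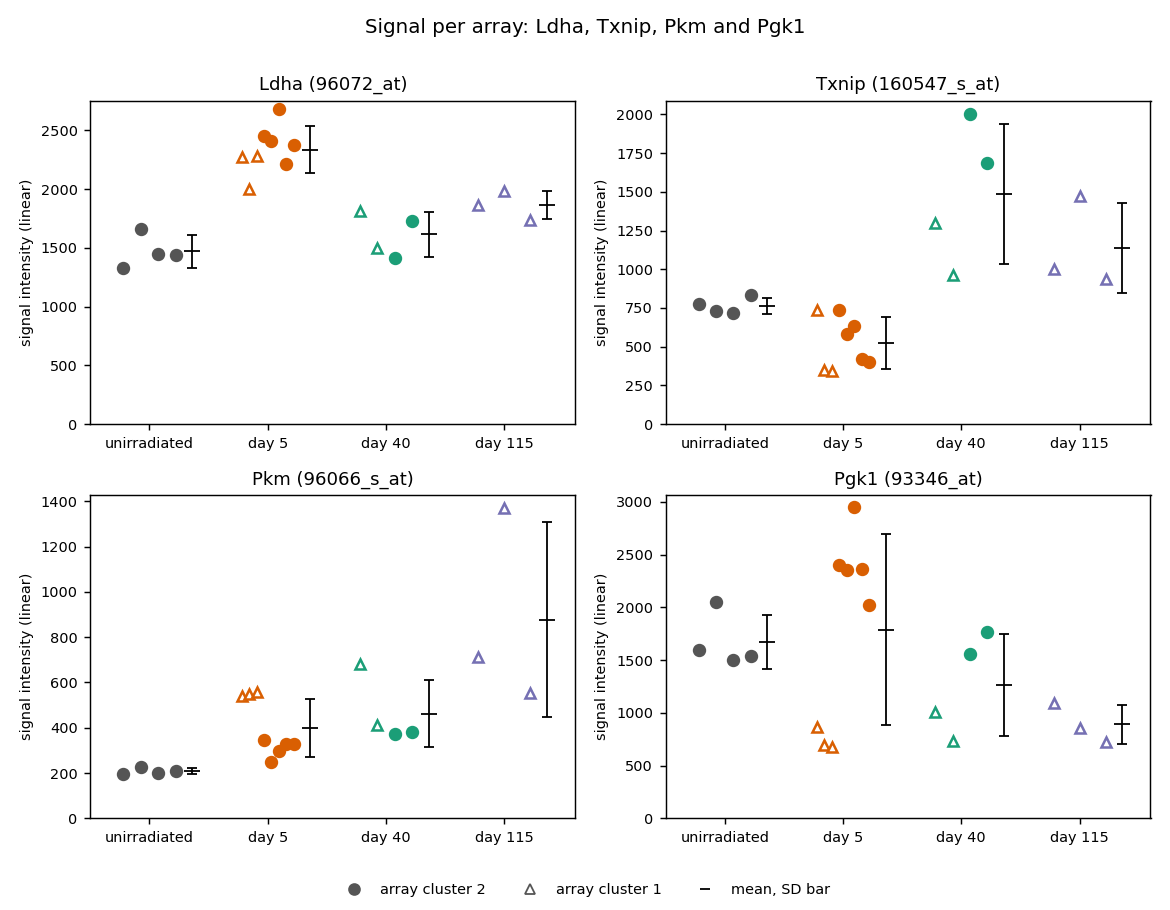
Linear signal (vertical axes) of Ldha, Txnip, Pkm and Pgk1 on each array, by group; filled circles are arrays of cluster 2, open triangles arrays of cluster 1, and the bar is the mean with its SD. Every day 5 array lies above the unirradiated arrays for Ldha, every day 40 array lies above every day 5 array for Txnip, and for Pgk1 the arrays divide by cluster within day 5 and day 40.

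Ldha, the A subunit of lactate dehydrogenase, was called higher at day 5 both on the groups alone and once the array cluster was added. Its signal was 1330, 1664, 1449 and 1440 on the unirradiated arrays. On the 8 day 5 arrays it ranged from 2003 to 2683 with a median of 2328. It was 1818, 1499, 1416 and 1731 at day 40, and 1867, 1984 and 1741 at day 115. Day 5 stood above both the unirradiated and the later groups without overlap, day 40 overlapped unirradiated, and day 115 lay above unirradiated and below day 5 but overlapped day 40. The means were 1471 ± 140 (SD, n = 4), 2337 ± 197 (n = 8), 1616 ± 190 (n = 4) and 1864 ± 122 (n = 3).

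Against unirradiated cells, Ldha was 1.58-fold higher at day 5 (log2 difference 0.66 ± 0.12 SE, limma adjusted p = 0.01). The difference was 0.69 with the cluster as a term (limma adjusted p = 0.00254). Leaving out unirradiated array 1 or array 4 moved the limma adjusted p to 0.0585 or 0.0571, with differences of 0.62 and 0.65. Non-overlap in the higher direction was found for 1.77% of all tested probe sets in this comparison; among the 13 it was found for Ldha and both Pkm probe sets. By day 40 Ldha had fallen from its day 5 level: it fell by 0.53 ± 0.12 on the log2 scale (limma adjusted p = 0.0282), and by 0.52 with the cluster term (limma adjusted p = 0.00509). That call was lost on leaving out day 5 array 5 or 8 or day 40 array 2, 3 or 4, where the log2 difference was -0.57 to -0.47 and the limma adjusted p 0.0528 to 0.111. It was also lost with only these 2 groups in the fit (limma adjusted p = 0.0912), and in cluster 1 alone the difference was -0.40 (limma adjusted p = 0.69, with 0.0115% of all called). Non-overlap in the lower direction held for 0.805% of all probe sets, and among the 13 for Ldha and Tpi1. The day 115 arrays were all higher than the unirradiated ones and all lower than the day 5 ones, but neither difference was called (log2 0.34 and -0.32, limma adjusted p = 0.0872 and 0.0977). The first was called after quantile normalisation (log2 0.51, limma adjusted p = 0.0166). Non-overlap of this kind held for 21.7% of all probe sets against unirradiated and for 5.13% against day 5.

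Txnip is represented by a bright and a dim probe set that did not behave alike. On the bright one (160547_s_at) the unirradiated arrays read 776, 732, 715 and 832. The day 5 arrays read 740, 349, 340, 735, 579, 633, 422 and 404. The day 40 arrays read 1298, 965, 2002 and 1684, and the day 115 arrays 1005, 1472 and 937. Day 5 reached up into the unirradiated range, and all day 40 and day 115 arrays lay above every unirradiated and every day 5 array. The means were 763.7 ± 52.4 (n = 4), 525.2 ± 167 (n = 8), 1487 ± 452 (n = 4) and 1138 ± 292 (n = 3).

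Txnip was 2.80-fold higher at day 40 than at day 5 (log2 1.48 ± 0.24, limma adjusted p = 0.00287), and this was called on leaving out each of the 12 arrays in turn. With the cluster as a term the difference was 1.54 (limma adjusted p = 0.000259). Within cluster 2 it was 1.74 (limma adjusted p = 0.00134, with 5.66% of all probe sets called), and within cluster 1 it was 1.30 and not called (limma adjusted p = 0.362), with 3 arrays against 2. Non-overlap in the higher direction held for 1.43% of all probe sets, and among the 13 for Txnip alone. Against day 5, Txnip at day 115 was 2.18-fold higher (log2 1.12 ± 0.26, limma adjusted p = 0.00921), again without overlap, which held for 5.78% of all probe sets. Without day 115 array 2 that difference was 0.93 and not called (limma adjusted p = 0.0681), and with the cluster term it was 1.39 (limma adjusted p = 0.00238). Against unirradiated cells, the difference was -0.59 ± 0.24 at day 5, 0.90 ± 0.27 at day 40 and 0.54 at day 115, none of them called (limma adjusted p = 0.282, 0.111 and 0.176). The last was called after quantile normalisation (log2 0.77, limma adjusted p = 0.0357) and with only these 2 groups in the fit (limma adjusted p = 0.0366). For day 40 the cluster term gave 1.11 (limma adjusted p = 0.0232) and the arrays of cluster 2 alone gave 1.25 (limma adjusted p = 0.00839, with 3.07% of all called), so this call depends on how the clusters are handled. Non-overlap in the higher direction held for 8.6% of all probe sets in that comparison, and among the 13 for Txnip and the brighter Pkm probe set.

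The dim Txnip probe set (160548_at) stayed between 59.4 and 91.2 on all 19 arrays. Its means were 69.5 ± 7.12 in unirradiated, 79.6 ± 8.71 at day 5, 71.1 ± 12.4 at day 40 and 69.5 ± 6.15 at day 115. None of its 6 comparisons was called on the groups alone, and with the cluster term it was lower at day 115 than at day 5 (log2 -0.31, limma adjusted p = 0.0352), the opposite direction to the bright one. The files do not say which part of the transcript each probe set reads, so statements on Txnip rest on the bright probe set, whose suffix _s_at marks probes that can match more than 1 transcript.

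**Figure D2:**
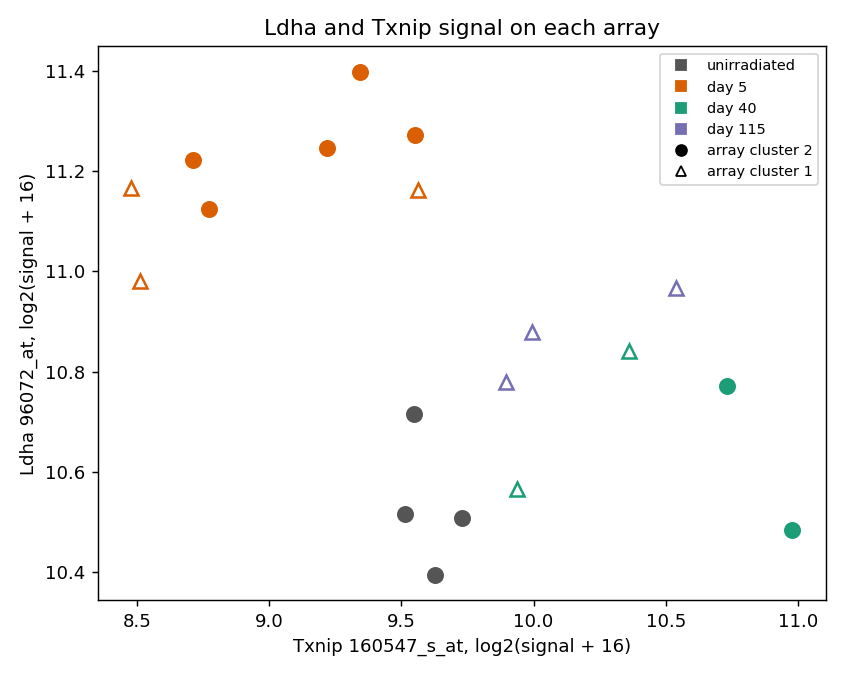
Ldha (vertical) against Txnip (horizontal) on each array, both as log2(signal + 16); colours mark the groups, filled circles cluster 2 and open triangles cluster 1. The day 5 arrays lie at the upper left, with high Ldha and low Txnip, and the day 40 and day 115 arrays to the right.

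Set side by side, the day 5 arrays had the highest Ldha and the lowest Txnip of the 4 groups by mean, and day 40 had the highest Txnip by mean. Over single arrays the relation was computed within each cluster. In cluster 2 (11 arrays) Pearson's r between Txnip and Ldha was -0.562 (permutation p = 0.0706) and Spearman's rho -0.6 (permutation p = 0.0557), and r was -0.599 without the 2 arrays farthest from the median Txnip. In cluster 1 (8 arrays) r was -0.501 (exact permutation p = 0.191), rho was -0.548 (exact permutation p = 0.171), and r without the 2 farthest arrays was -0.163. In all, 18 relations were computed (9 enzymes in 2 clusters, two-sided), and none passed Benjamini-Hochberg adjustment; for Ldha the adjusted p of r was 0.382 in cluster 1 and 0.312 in cluster 2 by permutation, and that of rho 0.308 and 0.288. The lowest adjusted p was that of rho between Txnip and Pgam1 in cluster 2 (rho -0.791, permutation p = 0.0059, adjusted p = 0.106). There r was -0.609 (permutation p = 0.0318, adjusted p = 0.293) and -0.443 without the 2 farthest arrays. The groups contribute unequally to each cluster, so these relations also carry the differences between groups.

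Pkm, pyruvate kinase of muscle and dividing cells, had the largest difference from unirradiated cells among the 13 probe sets, at day 115. On its brighter probe set (96066_s_at) the unirradiated arrays read 195, 228, 202 and 210. The day 5 arrays read 538, 548, 560, 347, 248.6, 298, 328 and 327. The day 40 arrays read 682, 413, 374 and 383, and the day 115 arrays 712, 1368 and 553. Every array from an irradiated host was above every unirradiated one, and within day 5 the 3 arrays of cluster 1 (mean 549) stood above the 5 of cluster 2 (mean 310).

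Pkm was 3.70-fold higher at day 115 than in unirradiated cells (log2 1.89 ± 0.31, limma adjusted p = 0.000935), and was called on leaving out each of the 7 arrays. Without day 115 array 2, the highest, the difference was 1.52 (limma adjusted p = 0.00659), and with the cluster term it was 1.20 (limma adjusted p = 0.022). The latter rests on the cluster differences within day 5 and day 40, which were 0.80 and 0.47 for this probe set. The differences at day 5 (0.83 ± 0.25, limma adjusted p = 0.156) and day 40 (1.05 ± 0.29, limma adjusted p = 0.0764) were not called on the groups alone. Within cluster 2, where all unirradiated arrays lie, they were 0.53 and 0.81 and were called (limma adjusted p = 0.0253 and 0.00712), with 2.38% of all called in the first. The summed signal of the 7 B-cell and plasma-cell genes was 1764 to 2772 over the arrays of cluster 1 and 887 to 1304 over those of cluster 2, and its part in the Pkm difference between clusters was not tested. At day 115 against day 5 the brighter probe set was 2.08-fold higher (log2 1.06 ± 0.28, limma adjusted p = 0.0171). That call was lost without day 115 array 2 (log2 0.69, limma adjusted p = 0.145) with only these 2 groups in the fit (limma adjusted p = 0.0589) and with the cluster term (log2 0.63, limma adjusted p = 0.0666). The other Pkm probe set (162032_f_at) had means of 193.7 ± 16.3, 284.5 ± 73.2, 238.9 ± 51.7 and 300.7 ± 28.2. It was called higher at day 115 against unirradiated (log2 0.59 ± 0.21, limma adjusted p = 0.0432), a call lost on leaving out any of the 7 arrays (limma adjusted p 0.058 to 0.127), after quantile normalisation (log2 0.63, limma adjusted p = 0.0779) and with the cluster term (log2 0.03, limma adjusted p = 0.929). The suffixes _s_at and _f_at mark probes shared by related sequences, so neither probe set separates the muscle 1 and 2 forms of the enzyme or copies of the gene.

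**Figure D3:**
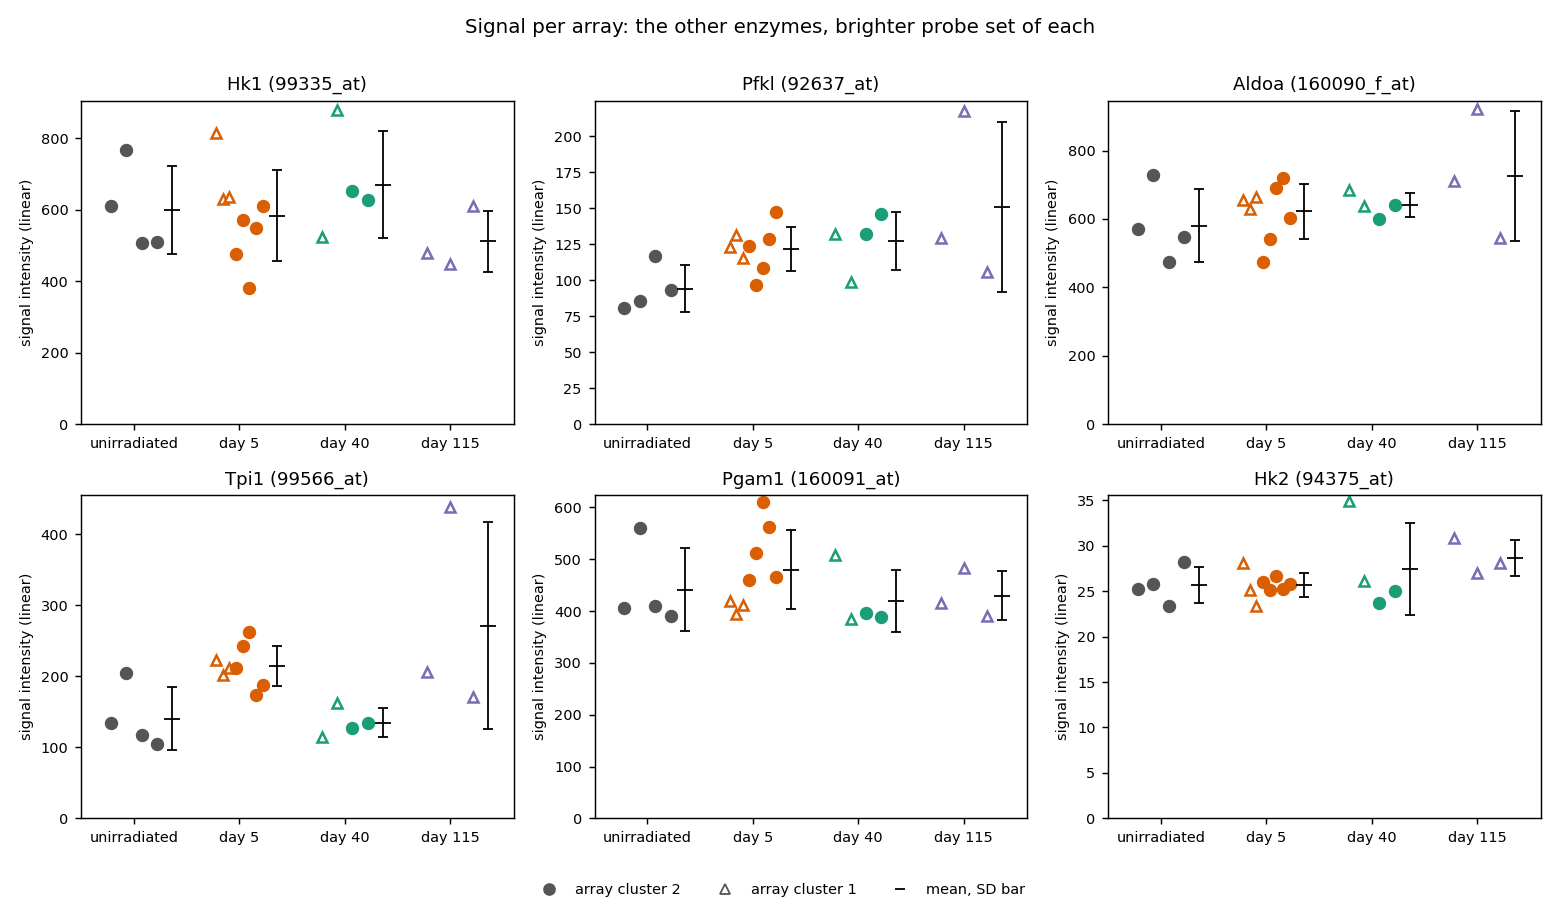
Linear signal (vertical axes) of Hk1, Pfkl, Aldoa, Tpi1, Pgam1 and Hk2 on each array, by group, with the brighter probe set where there is a pair; filled circles are cluster 2, open triangles cluster 1, and bars show mean and SD. For Pfkl and Tpi1 day 115 array 2 lies far above the other arrays, and Hk2 lies near the filter of 26.4 on all arrays.

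Pgk1, the phosphoglycerate kinase that makes the first ATP of the pathway, was the enzyme most divided by the array cluster. Its signal was 1599, 2054, 1504 and 1538 on the unirradiated arrays. At day 5 it was 862, 698 and 672 on the arrays of cluster 1 and 2402, 2354, 2950, 2364 and 2021 on those of cluster 2. At day 40 it was 1006 and 729 in cluster 1 and 1559 and 1764 in cluster 2, and at day 115 it was 1094, 856 and 724, all in cluster 1. Within day 5 the cluster means were 744 and 2418, a log2 difference of -1.68, and within day 40 they were 868 and 1662, a difference of -0.94; the clusters come from these values, so no test is given. On the groups alone Pgk1 was 0.91 lower at day 115 than in unirradiated cells on the log2 scale (-0.91 ± 0.48, limma adjusted p = 0.16), and with the cluster term it was 0.52 higher (limma adjusted p = 0.234), so its direction is not settled. All 3 day 115 arrays lay below the unirradiated ones, as 21% of all probe sets did. With only these 2 groups in the fit the lower level was called (limma adjusted p = 0.00303). These groups share no cluster, so that fit cannot tell group from cluster. At day 5 the difference was -0.10 on the groups alone (limma adjusted p = 0.91) and 0.53 ± 0.13 within cluster 2 (limma adjusted p = 0.059).

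Tpi1, triosephosphate isomerase, read 134, 205, 118 and 105 in unirradiated cells. At day 5 it ranged from 174 to 262 with a median of 212. It was 114, 163, 128 and 135 at day 40, and 206, 438 and 170 at day 115. Day 40 lay below every day 5 array and every day 115 array, and 1 unirradiated array reached the day 5 range. The difference from unirradiated was 0.59 ± 0.20 at day 5 (limma adjusted p = 0.209), -0.02 at day 40 (limma adjusted p = 0.968) and 0.81 ± 0.25 at day 115 (limma adjusted p = 0.0231). The last was called, but without day 115 array 2 it was 0.42 (limma adjusted p = 0.15), and it was also lost without unirradiated array 3 (0.74, limma adjusted p = 0.0572) or 4 (0.69, limma adjusted p = 0.0707), with only these 2 groups in the fit (limma adjusted p = 0.0573) and with the cluster term (0.79, limma adjusted p = 0.136). Between day 40 and day 5 the difference was -0.61 ± 0.20 and not called (limma adjusted p = 0.142; 0.0591 with the cluster term). Between day 115 and day 40 it was 0.83 ± 0.25 and not called (limma adjusted p = 0.206), and non-overlap in the higher direction held for 4.06% of all probe sets.

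Pfkl, the liver-type phosphofructokinase, read 80.9, 85.4, 117 and 93.6 in unirradiated cells. At day 5 it ranged from 96.4 to 147 with a median of 123. It was 132, 98.8, 132 and 146 at day 40, and 129, 218 and 106 at day 115. All 3 irradiated groups overlapped unirradiated array 3. The difference from unirradiated was 0.33 at day 5 and 0.38 at day 40, neither called (limma adjusted p = 0.351 and 0.308), and 0.55 ± 0.19 at day 115, called (limma adjusted p = 0.0353). The day 115 call was lost without day 115 array 2 (0.28, limma adjusted p = 0.22), without unirradiated array 1 (0.49, limma adjusted p = 0.0882), 2 (0.52, limma adjusted p = 0.0735) or 4 (0.55, limma adjusted p = 0.0675), with only these 2 groups in the fit (0.55, limma adjusted p = 0.0636) and with the cluster term (0.61, limma adjusted p = 0.127).

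The tested probe sets of the remaining 4 enzymes were called in no comparison, on the groups alone or with the cluster term. Hk1, the hexokinase of most tissues, had means of 598.9 ± 123, 583.2 ± 127, 670.3 ± 150 and 511.5 ± 86.3 in unirradiated, day 5, day 40 and day 115 cells. Its differences from unirradiated were -0.05 ± 0.19, 0.15 ± 0.22 and -0.21 ± 0.23. Hk2, the inducible hexokinase, read 23.4 to 34.9 over all 19 arrays on the tested probe set, near the filter of 26.4, and 10.7 to 17.7 on the dimmer one. The dimmer one had means of 12.3 ± 1.20, 11.7 ± 0.665, 12.8 ± 2.38 and 15.8 ± 2.08; with no filter it was called higher at day 115 than in unirradiated and day 5 cells (log2 0.16 and 0.20, limma adjusted p = 0.0318 and 0.00955). The differences of the tested one were at most 0.10 ± 0.07, and signals this low set a limit to what could be seen. Pgam1, phosphoglycerate mutase, had means of 441.4 ± 79.5, 479.7 ± 76.6, 419.8 ± 59.3 and 429.8 ± 47.8, and its largest difference from unirradiated was 0.12 ± 0.15, at day 5.

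The Aldoa probe sets pointed in different directions at day 115. The brighter (160090_f_at) had means of 580.8 ± 107, 622.3 ± 80.9, 641.2 ± 34.8 and 725.7 ± 190, and the other (161889_f_at) 358.5 ± 75.3, 370.1 ± 43.8, 325.8 ± 17.7 and 279.8 ± 17.7. At day 115 against unirradiated the first differed by 0.30 ± 0.19 (limma adjusted p = 0.254) and the second by -0.32 ± 0.16 (limma adjusted p = 0.145). The lowest adjusted p for either was that of the second between day 115 and day 5 (log2 -0.38 ± 0.14, limma adjusted p = 0.0826). Its day 115 arrays also lay below every day 40 array (log2 -0.21, limma adjusted p = 0.544), as for 4.34% of all probe sets. Both carry the suffix of probes shared by a family of sequences, so aldolase A and its copies cannot be told apart.

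**Figure D4:**
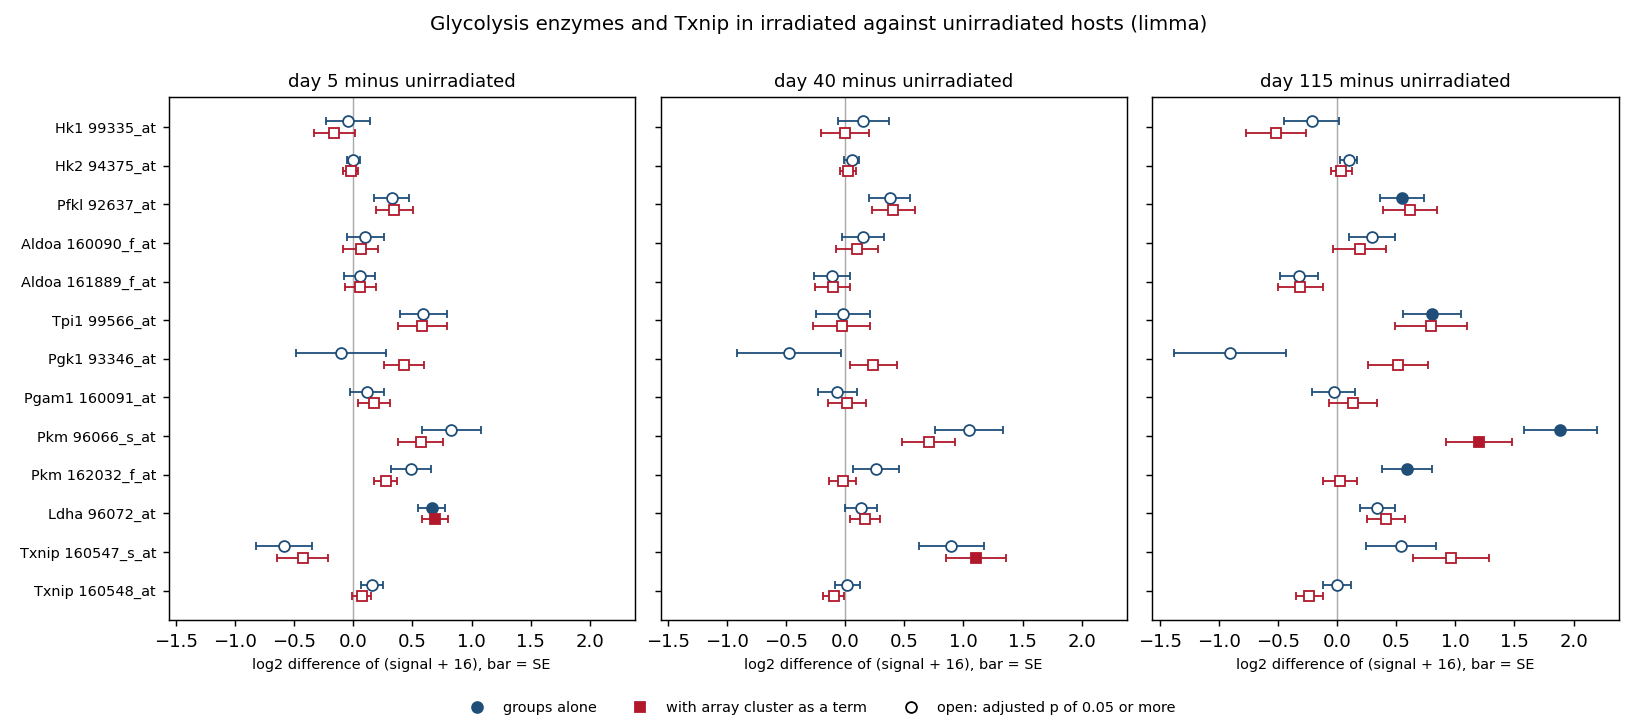
Log2 difference of (signal + 16) between each irradiated group and unirradiated cells for the 13 tested probe sets, from limma; circles are the fit on groups alone, squares the fit that adds the array cluster, filled symbols are called and bars are the SE. Ldha at day 5 and the brighter Pkm probe set at day 115 are filled under both fits, and Pgk1 at day 115 lies on opposite sides of 0.

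**Figure D5:**
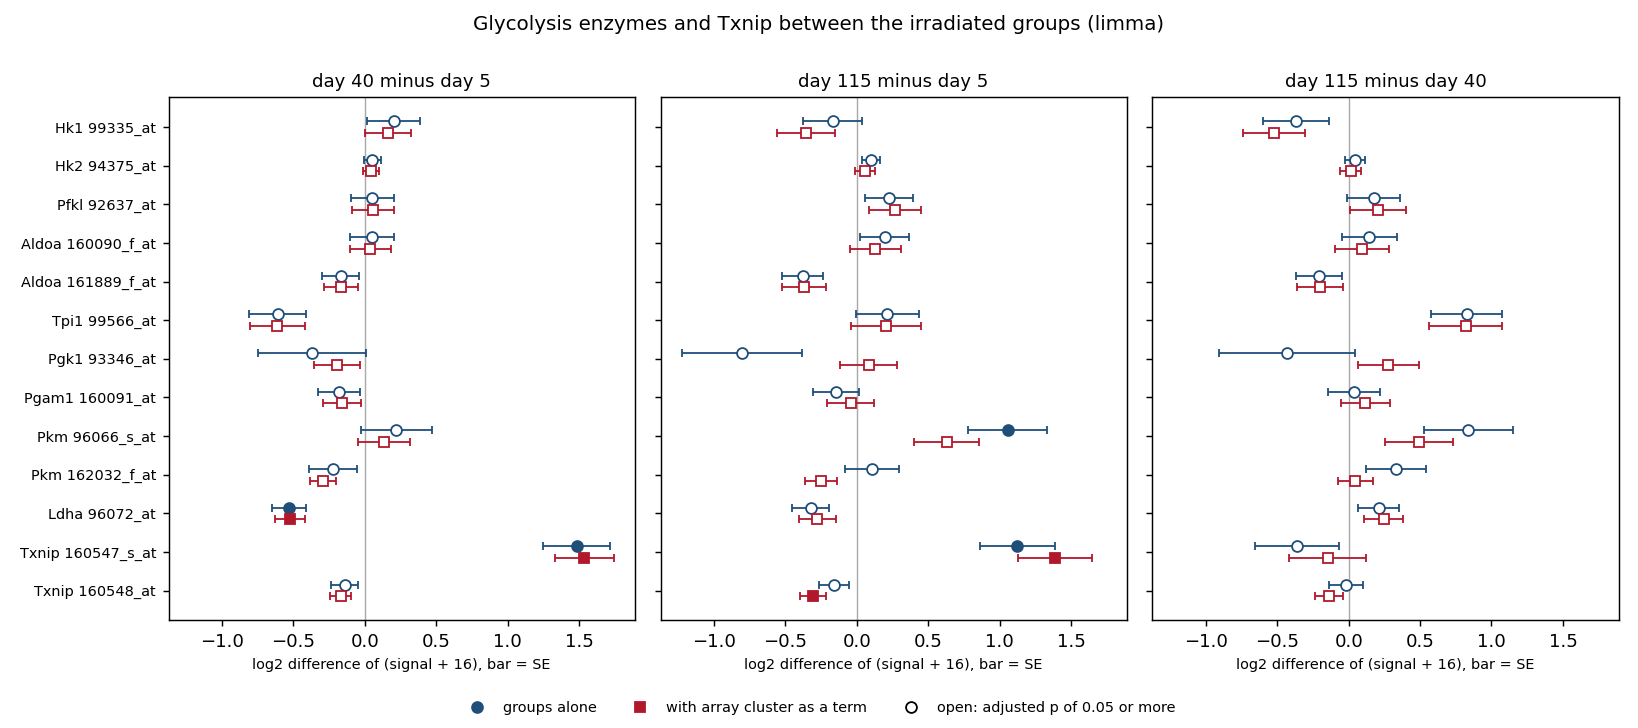
The same log2 differences and symbols between the irradiated groups. From day 5 to day 40 Txnip rises and Ldha falls under both fits, while no probe set is filled between day 40 and day 115.

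Other genes of glucose use were described by lists, with counts of genes by their brightest probe set. Of 14 tested genes of the rest of glycolysis and of glucose and lactate transport, limma called 0 at day 5 (0 at an unadjusted p under 0.05), 1 was higher at day 40 and 4 were higher at day 115 against unirradiated, with 0 lower; over all genes 15.9% were called higher and 12.7% lower at day 115. With the cluster term 0 were called at day 5, 2 were higher at day 40, and 2 were higher and 1 lower at day 115. That term called 1.61%, 2.23% and 4.42% of all tested probe sets in these comparisons. On the groups alone the list's median log2 difference was 0.04, 0.11 and 0.06, beside 0.03, 0.03 and 0.02 over all genes. Pfkp, the platelet-type phosphofructokinase, was the gene called in most comparisons, with means of 177 ± 40.5 (unirradiated), 199 ± 34.9 (day 5), 342 ± 36.1 (day 40) and 433 ± 88.7 (day 115). It was higher than in unirradiated cells at day 40 (log2 0.91 ± 0.18, limma adjusted p = 0.0127; 0.89 and 0.0105 with the cluster term). At day 115 it was higher by 1.22 ± 0.19 (limma adjusted p = 0.000705; 1.20 and 0.00686 with the cluster term). Its rise from day 5 to day 40 was 0.75 ± 0.15 (limma adjusted p = 0.0196). At day 115 the glucose transporters Slc2a1 (58.3 ± 20.0 against 35.0 ± 1.57) and Slc2a3 (109 ± 41.0 against 64.1 ± 8.67) and the muscle enolase Eno3 (184 ± 94.1 against 92.4 ± 7.03) were also called higher, by 0.51, 0.60 and 0.79, none with the cluster term.

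In the thioredoxin system and the other alpha-arrestins, 8 genes were tested. Limma called 0 at day 5 and 0 at day 40 (1 and 1 at an unadjusted p under 0.05), and at day 115 3 were higher and 0 lower, the thioredoxin reductases Txnrd1, Txnrd2 and Txnrd3 (log2 0.96, 0.82 and 1.24); none was called with the cluster term. Txn1, the thioredoxin that Txnip binds, had a mean of 713 ± 232 in unirradiated cells and 1372 ± 399 at day 5 (log2 0.93 ± 0.22, limma adjusted p = 0.0616; 0.97 and 0.0361 with the cluster term). Of 6 tested genes of the pentose phosphate pathway, which makes NADPH and ribose from glucose, 3 were higher at day 115 than in unirradiated cells (Taldo1, Pgls and Pgd, log2 1.36, 0.98 and 0.57) and 0 lower. None was called by limma at day 5 or day 40 (2 and 1 at an unadjusted p under 0.05). Of 25 tested genes of pyruvate entry and the citric acid cycle, 3 were higher and 3 lower at day 115, and none was called by limma at day 5 or day 40 (4 and 2 at an unadjusted p under 0.05). The largest were Sdhb (1.74) and Ogdh (1.14) up and Sucla2 (-1.71) and Dld (-1.14) down. Over all genes 15.9% were called higher and 12.7% lower at day 115 against unirradiated, a share that stands beside each list of this paragraph. The 3 higher and 3 lower of 25 in the citric acid cycle list lie near those shares. With the cluster term none of the 6 pentose phosphate genes was called at day 115. In the citric acid cycle list none of the calls at day 115 on the groups alone was kept, and 3 other genes were called higher and 0 lower with the term, Dlst, Sdha and Sdhc; Sdhc was also called higher with the term at day 5.

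Of 10 tested regulators of glycolysis or of Txnip, 2 were higher and 2 lower at day 115 against unirradiated (15.9% and 12.7% of all genes). None was called by limma at day 5 or day 40 (5 and 5 at an unadjusted p under 0.05). The kinases Akt1 and Akt2 were higher (log2 1.15 and 0.89). Hif1a, the hypoxia-inducible factor subunit, fell by 1.82 and Ddit4, a stress-induced inhibitor of mTORC1, fell by 3.65 on the log2 scale; of these 4, only Akt1 was called with the cluster term. Of 14 tested genes of cell division, 4 were higher and 0 lower at day 5 against unirradiated (median log2 0.93, beside 0.03 over all genes), where 0.406% of all genes were called higher. At day 40 against day 5, 0 were higher and 5 lower, with 0.328% of all genes called lower, and at day 115 against day 5, 0 were higher and 7 lower, with 5.24% of all genes called lower. At day 115 against unirradiated 3 were higher and 1 lower (15.9% and 12.7% of all genes), none with the cluster term. Stmn1, a microtubule regulator of dividing cells, went from 186 ± 107 in unirradiated to 799 ± 392 at day 5 and 130 ± 28.3 at day 40, and Top2a, the topoisomerase of dividing cells, from 37.9 ± 6.54 to 226 ± 186 and 35.2 ± 2.43.

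The genes most like Ldha over the 19 arrays, by Pearson's r of log2(signal + 16) after the mean of each array cluster was subtracted, were Stmn1 (r = 0.893), Top2a (0.882), Pclaf (0.878), Gmnn (0.866) and Cmc2 (0.865), out of 6408 genes. The genes most like Txnip were Npc1 (0.928), Znrf2 (0.913), Fam76b (0.907), Adcy7 (0.900) and Senp6 (0.897). These are descriptions over arrays that share their group differences, with no test.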

How the data were processed

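The deposited table holds 1 signal intensity per probe set and array, on a linear scale with array medians of 49.6 to 53.7; the authors' scanner software, scaling and probe summary are not given in the sources used here. Of 12488 probe sets, 66 controls were left out; of the rest, 10833 had 1 gene symbol in the platform annotation, 396 several and 1193 none, and probe sets were named only from a single symbol. Signals were taken as log2(signal + 16), with no further normalisation. The 8695 probe sets whose mean lay above the 30th percentile (26.4) were tested with limma 3.58.1 (lmFit, eBayes with trend; R 4.3.3) on all 19 arrays, and calls had a Benjamini-Hochberg adjusted p under 0.05. Array clusters came from average linkage on 1 minus Pearson's r. Correlations used two-sided permutation tests (scipy 1.17.1). The script was tested on simulated data drawn without array clusters, a setting unlike these arrays. The number of arrays limits the precision.

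The genes, the lists and the alternatives were chosen with earlier results of these data known. All probe sets of the 10 genes are given; from each other list, up to 4 genes with the largest called differences are named. Txn1, Dlst, Sdha and Sdhc fall outside that rule and were chosen after their values were seen. Alternatives were pseudocounts of 1 and 64, no filter and a filter at the 50th percentile, quantile normalisation, the array cluster as a term, each cluster alone, the 2 groups compared alone, the replicate number as a block and leaving out each array.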

Additional observations from a re-analysis of the deposited data

Results flagged for a closer look

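Of 42 sets of arrays checked (each probe set in each group of 4 to 10 arrays), 3 had 1 array far from the others by Dixon's test, where chance gives about 1 in 20. Pgam1 in unirradiated replicate 2 read 560.1, and the nearest of the other arrays read 409.1. Pgam1 in day 40 replicate 1 read 508.4, with the nearest at 396.9. The brighter Pkm probe set in day 40 replicate 1 read 681.7, with the nearest at 413.0.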

How the results depend on the processing

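Counts of called probe sets over the whole array depended on the model. With the array cluster as a term they were 140 (main count 69) at day 5, 384 (2427) at day 115 against unirradiated, 650 (109) at day 40 against day 5 and 17 (8) at day 115 against day 40; of the 13 probe sets described, 1 was then called at day 40 (main 0) and 1 at day 115 (main 4) against unirradiated. Pgk1 at day 115 turned from -0.905 to 0.515. Within cluster 2 the counts were 207 (2 of the 13) at day 5, 267 (2) at day 40 and 492 at day 40 against day 5. Within cluster 1 they were 1 (0 of the 13) at day 40 against day 5, 111 (0) at day 115 against day 5 and 0 between day 115 and day 40. No filter gave 1865 at day 115 against day 5 (main 1205) and 63 at day 115 against day 40, and a filter at the 50th percentile gave 4 there. With only the 2 groups compared in the fit the counts were 40, 273 (1 of the 13; main 130 and 0), 46 (1) at day 40 against day 5, 658 (1) at day 115 against day 5 and 0 at day 115 against day 40.

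The replicate number as a block gave 1707 (3 of the 13) at day 5, 407 (1) at day 40, 2 of the 13 at day 115, 35 (1) at day 40 against day 5, 198 (0) at day 115 against day 5 and 3 at day 115 against day 40. Correlations between the deviations of same-numbered arrays ranged from -0.67 to 0.76. For numbers 1 to 4 of day 5 and day 40 they were 0.64, 0.62, -0.67 and 0.76. Of these pairs only the arrays numbered 3 lay in different clusters. The signs there go with the clusters, so the check cannot show whether the numbers pair the arrays.

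Leaving out 1 array gave 13 to 80 called probe sets (0 to 1 of the 13) at day 5, 54 to 138 (0) at day 40, 1554 to 2006 (1 to 3) at day 115, 25 to 187 (1 to 2) at day 40 against day 5, 589 to 1653 (0 to 3) at day 115 against day 5 and 3 to 87 (0) at day 115 against day 40. The lowest counts came without unirradiated array 4 (13), unirradiated array 3 (54), day 115 array 2 (1554 and 589) and day 40 array 4 (25 and 3); without day 115 array 3 the count was 1611. The highest counts at day 40 against day 5 and at day 115 against day 40 came without day 5 array 4 (187) and day 40 array 1 (87). Pseudocounts of 1 and 64 and quantile normalisation kept these counts within 1.5 times. The cause of these differences was not tested. Comparisons of day 115 with unirradiated arrays within a cluster could not be fitted.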
